A study of Mus musculus with 6 samples.

Results

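Notch signalling was examined in cells sorted from the mouse olfactory epithelium, through 10 genes: the receptors Notch1, Notch2 and Notch3, the ligands Jag1, Jag2, Dll1 and Dll3, and the target genes Hes1, Hes5 and Hey1. Every probe set whose platform symbol is one of these names was taken, which gave 17 of the 45037 probe sets that are not array controls. No probe set shared one of these symbols with another gene. Cells were sorted with a fluorescent antibody to the adhesion protein ICAM1, and ICAM1-positive cells were set against the ICAM1-negative cells of the same preparation. Both groups came from CD1 mice with no further genotype or treatment in the labels, at postnatal days 21, 22 and 24 for litters 1, 2 and 3, so age and litter cannot be told apart. Each litter gave 1 array per sort, which makes 3 ICAM1-positive and 3 ICAM1-negative arrays. A sample pools the mice of a litter, and the number of mice is not given in the sources used here.

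Notch receptors are membrane proteins that are switched on by ligands of the Jagged and Delta-like families on a neighbouring cell. Ligand binding leads to cleavage of the receptor by an ADAM protease and then by the gamma-secretase complex, and the released intracellular part joins the DNA-binding protein RBPJ to activate genes such as those of the Hes and Hey repressors. In neural tissue these repressors hold down proneural transcription factors, and in the olfactory epithelium Notch signalling is known for its part in keeping horizontal basal cells quiescent and in the choice between neuronal and non-neuronal fates. Horizontal basal cells are the reserve stem cells that lie on the basal lamina and carry ICAM1, while globose basal cells above them divide and give rise to neurons. Endothelial and immune cells can carry ICAM1 as well.

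Values are scaled linear intensities in arbitrary units, and levels of different genes were not compared. The median intensity of an array lay between 87.9 and 102.8, and values below the median were treated as near background because no detection calls were used here. Icam1 itself averaged 6974 ± 237 in ICAM1-positive and 20.8 ± 10.9 in ICAM1-negative cells (SD, n = 3 each), which follows the titles of the samples and goes against their free-text descriptions. The arrays measure RNA of whole sorted populations, so more cells of a type and more RNA per cell cannot be told apart. P-values rest on the spread between separate litters, and the number of arrays limits the precision.

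Most of the Notch genes were higher in ICAM1-positive cells. By their leading probe sets, the ones with the highest mean over the 6 arrays, 7 of the 10 genes rose (Notch1, Notch2, Jag1, Jag2, Dll1, Hes1 and Hey1), 1 fell (Dll3) and 2 did not pass (Notch3 and Hes5). Each difference is the mean log2 intensity of ICAM1-positive minus that of ICAM1-negative arrays, tested with limma over 38694 probe sets and called at a Benjamini-Hochberg adjusted p under 0.05. Of the 17 probe sets 16 passed the filter on low values, and of these 10 were higher, 2 lower and 4 not called, a share called of 75% where 34.9% of all tested probe sets were called (16.9% higher and 18% lower). Counted as genes, 80% of the 10 were called against 41.4% of 16399. The 2 sorts did not overlap in 14 of the 16 probe sets, as in 50.1% of all probe sets tested. The median log2 difference of the 10 leading probe sets was 2.49, beside -0.06 over all genes.

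**Figure D1:**
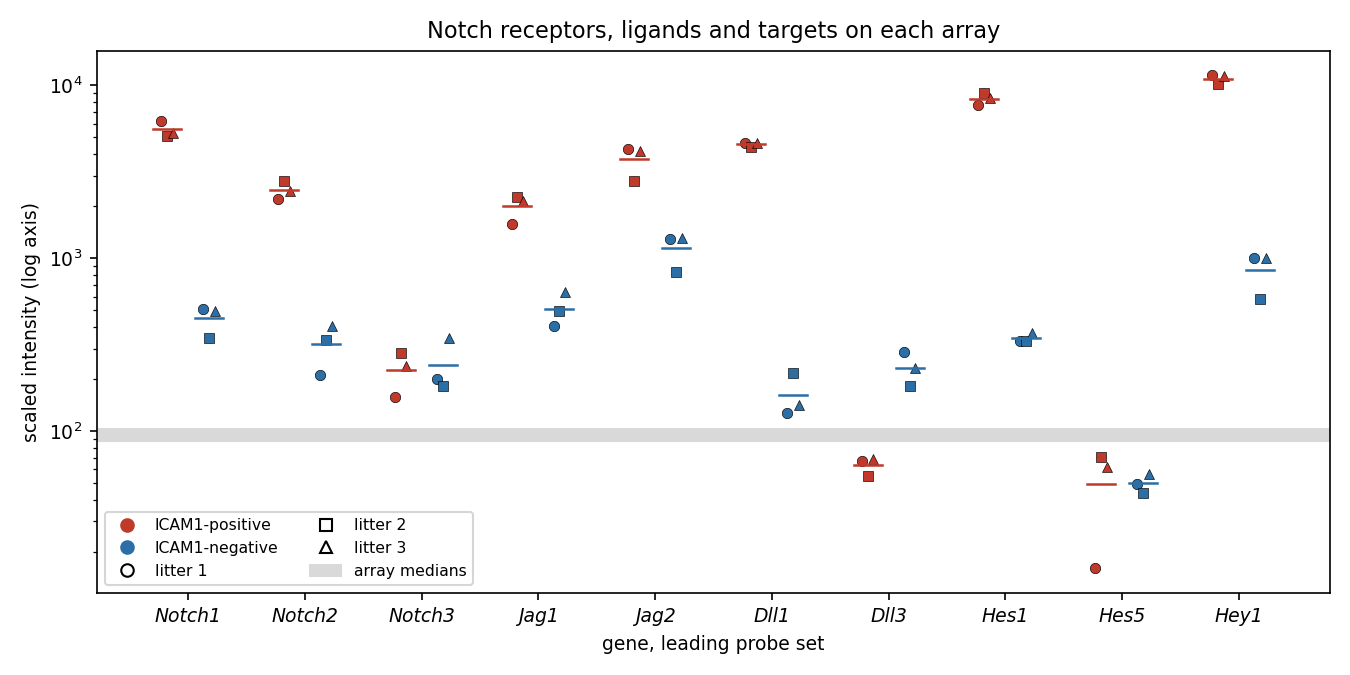
Scaled intensity (log axis) of the leading probe set of each of the 10 genes on each array, with ICAM1-positive arrays in red left of ICAM1-negative arrays in blue, symbols for the 3 litters, a line at each mean and a grey band over the array medians (87.9 to 102.8). The red and blue points are apart for 8 genes and mixed for Notch3 and Hes5, and Dll3 is the gene whose ICAM1-positive points lie below its ICAM1-negative points.

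Among the receptors, Notch1 and Notch2 rose and Notch3 did not pass. Notch1, a receptor of epithelial and neural progenitors, was measured at 6242, 5114 and 5326 on the ICAM1-positive arrays of litters 1, 2 and 3, against 510.4, 344 and 497.3 on the ICAM1-negative arrays. Every ICAM1-positive array was above every ICAM1-negative one, a 12.5-fold difference (log2 difference 3.64 ± 0.22 SE, limma adjusted p = 0.000221). A second Notch1 probe set (1418633_at) gave the same direction and a smaller log2 difference of 2.47 ± 0.41 (adjusted p = 0.00562). Of its ICAM1-negative arrays 2 were below the array median, and its call was lost without litter 1 (adjusted p = 0.0702).

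Notch2, a receptor close to Notch1 in structure, was at 2196, 2805 and 2436 in ICAM1-positive cells and at 211.1, 338.5 and 408.1 in ICAM1-negative cells. The sorts were again apart, by 8.01-fold (log2 difference 3.0 ± 0.29, adjusted p = 0.000747). The other Notch2 probe set (1451889_at) was below the median on all 6 arrays, with 52.2 to 68.7 in ICAM1-positive and 4.1 to 43.5 in ICAM1-negative cells, and was not called (adjusted p = 0.128).

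Notch3, a receptor known for its role in vascular smooth muscle, was at 156.5, 282.4 and 237.3 in ICAM1-positive cells and 199.6, 182.5 and 344.6 in ICAM1-negative cells. The sorts overlapped, and the difference was higher in 1 litter and lower in 2 (log2 difference -0.09 ± 0.35, 95% interval -0.94 to 0.77, adjusted p = 0.876). Its other probe set (1421964_at) was the one left out by the filter, with intensities of 2.2 to 37.8 in ICAM1-positive and 7.5 to 14.4 in ICAM1-negative cells, all below the array medians.

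The 4 ligand genes divided by direction: Jag1, Jag2 and Dll1 rose and Dll3 fell. Dll1, a Delta-like ligand that activates receptors on neighbouring cells, was at 4614, 4386 and 4655 in ICAM1-positive cells and at 126.9, 216.9 and 142.5 in ICAM1-negative cells. This was a 28.9-fold difference with the sorts far apart (log2 difference 4.85 ± 0.25, adjusted p = 0.000162). Within litters the log2 difference was 5.18, 4.34 and 5.03.

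Dll3 is a divergent Delta-like protein that does not activate receptors on neighbouring cells and is known from neuronal precursors and somite formation. It was at 67.4, 55 and 68.5 in ICAM1-positive cells, below the median of each of those arrays, and at 285.6, 181.2 and 231.1 in ICAM1-negative cells. Dll3 fell in each litter (log2 difference -1.85 ± 0.23, adjusted p = 0.00192). Since the ICAM1-positive values are near background, the fold is given as at least 2.37-fold lower, from those values raised to the median of their array.

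The promoters of the 2 Delta-like genes are shown because these ligands moved in opposite directions. They run 5′ to 3′ from 250 bases before to 50 after the annotated start (RefSeq, GRCm38.p6), and capitals mark CAGCTG, an E-box that reads the same on both strands. The Dll1 window is chr17:15376883-15377182 and the Dll3 window chr7:28301736-28302035, both on the minus strand.
Dll1: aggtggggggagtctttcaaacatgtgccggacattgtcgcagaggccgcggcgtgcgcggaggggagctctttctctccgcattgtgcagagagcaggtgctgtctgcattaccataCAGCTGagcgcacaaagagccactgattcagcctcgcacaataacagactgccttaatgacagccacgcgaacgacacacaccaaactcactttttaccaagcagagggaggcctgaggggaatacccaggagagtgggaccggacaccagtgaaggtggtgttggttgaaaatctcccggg
Dll3: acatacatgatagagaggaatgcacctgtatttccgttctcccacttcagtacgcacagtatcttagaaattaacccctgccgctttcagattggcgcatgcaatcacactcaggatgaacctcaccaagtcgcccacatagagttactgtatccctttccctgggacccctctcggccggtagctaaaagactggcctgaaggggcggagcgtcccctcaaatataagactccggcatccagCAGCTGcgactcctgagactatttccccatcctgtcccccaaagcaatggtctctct
The E-box began 132 bases before the start in Dll1 and 7 bases before it in Dll3, so both hold this match although the genes moved in opposite directions. A second annotated Dll1 start (chr17:15375774-15376073) had none, and Jag1 had 1 match, 82 bases before its start. Among 32851 mouse promoters of this length, 16.3% hold CAGCTG, and a match is only a description of the sequence.

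Both Jagged ligands rose. Jag1 was at 1575, 2255 and 2155 in ICAM1-positive cells and at 402.8, 494.6 and 636.8 in ICAM1-negative cells, a 3.92-fold difference (log2 difference 1.97 ± 0.25, adjusted p = 0.00217). Its other probe sets pointed the same way in each litter. One of them, 1421106_at, rose by 1.27 ± 0.25 on the log2 scale (adjusted p = 0.0101), and its call was lost without litter 2 (adjusted p = 0.0558) or litter 3 (0.0814). The third, 1421105_at, was at 94.5 to 103.3 in ICAM1-positive and 46.8 to 82.3 in ICAM1-negative cells and was not called (log2 difference 0.71 ± 0.25, adjusted p = 0.0721).

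Jag2, the second Jagged ligand, was at 4296, 2811 and 4183 in ICAM1-positive cells and at 1300, 837.4 and 1315 in ICAM1-negative cells. Litter 2 was the lowest in both sorts, and the log2 differences within litters lay close together, at 1.72, 1.75 and 1.67. The fit gave 1.71 ± 0.28 (3.28-fold, adjusted p = 0.00547), which missed the threshold without litter 1 (adjusted p = 0.0560) or litter 3 (0.0547). This fit has no litter block, and with litter as a block the SE was 0.12 (adjusted p = 0.00540). The second Jag2 probe set (1426431_at) rose by 1.29 ± 0.34 on the log2 scale (adjusted p = 0.0312) and lost its call without litter 1 (0.176), without litter 3 (0.138) or without any of 5 single arrays (0.0524 to 0.0962). With litter as a block its SE was 0.18 (adjusted p = 0.0157).

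**Figure D2:**
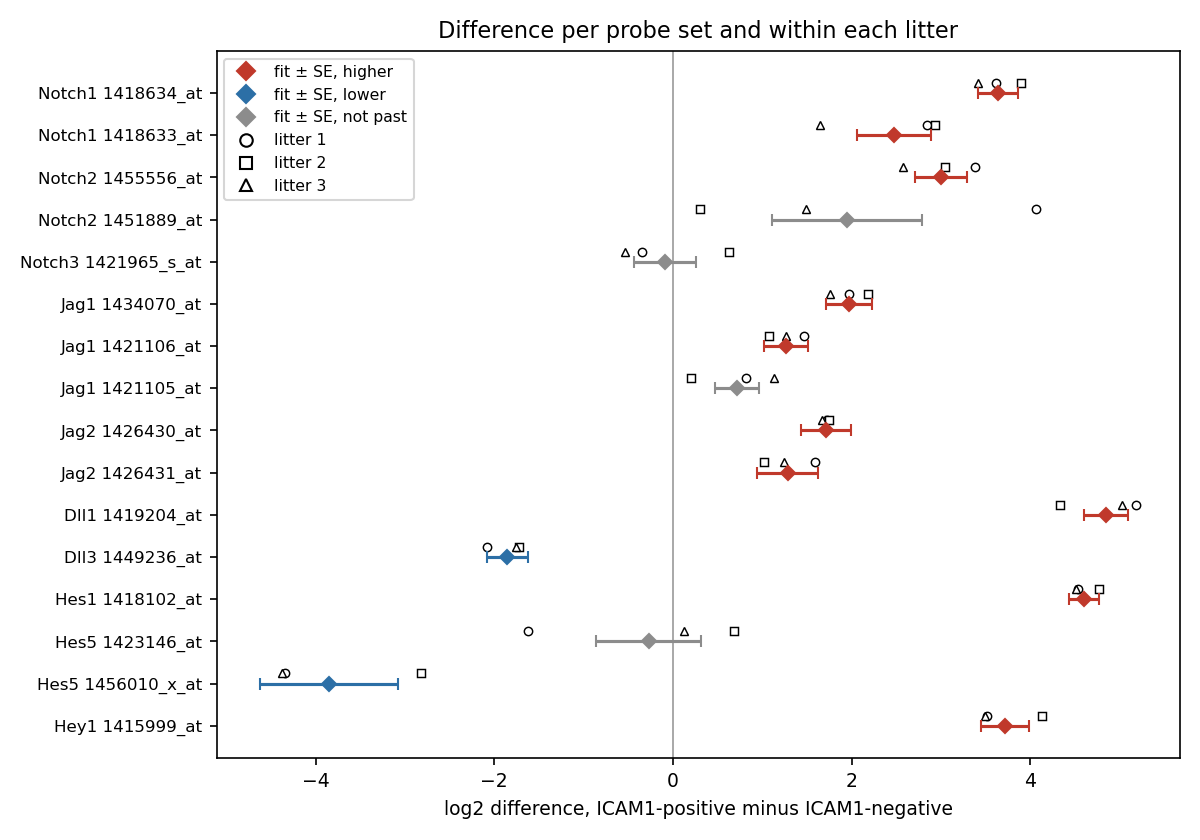
Log2 difference, ICAM1-positive minus ICAM1-negative, for the 16 probe sets that passed the filter, as the fit with its standard error (diamonds, red for higher, blue for lower, grey for not past the threshold) and within each litter (open symbols). The litters lie on 1 side of 0 for 14 probe sets and on both sides for Notch3 1421965_s_at and Hes5 1423146_at.

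Of the target genes, Hes1 and Hey1 rose, and the 2 probe sets of Hes5 disagreed. Hes1, a basic helix-loop-helix repressor that Notch activates in many stem cells, was at 7687, 9083 and 8403 in ICAM1-positive cells and at 331.6, 333.5 and 368.7 in ICAM1-negative cells. The difference was 24.3-fold (log2 difference 4.60 ± 0.17, adjusted p = 0.000124) and lay between 4.51 and 4.77 within litters. Hey1, a related repressor, was at 11423, 10152 and 11283 in ICAM1-positive cells against 997.9, 578.1 and 1004 in ICAM1-negative cells, a 13.1-fold difference (log2 difference 3.71 ± 0.27, adjusted p = 0.000323). For both genes the lowest ICAM1-positive array was far above the highest ICAM1-negative one.

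Hes5, a repressor that marks Notch activity in neural progenitors, was low by both probe sets, with 1 ICAM1-negative value above the median of its array. Its leading probe set (1423146_at) was at 16.1, 71.1 and 61.7 in ICAM1-positive cells and 49.7, 44.1 and 56.6 in ICAM1-negative cells, all below the array medians, and the sorts overlapped (log2 difference -0.27 ± 0.59, 95% interval -1.71 to 1.17, adjusted p = 0.763). The other, 1456010_x_at, belongs to a class of probe sets that can cross-hybridise with other transcripts, and was at 4, 19.2 and 2.8 in ICAM1-positive cells and 81.2, 135.3 and 58.3 in ICAM1-negative cells. It was called lower (log2 difference -3.85 ± 0.77, adjusted p = 0.0116), but not with values below the median raised to it (-0.17 ± 0.16, adjusted p = 0.632), nor without litter 1 (0.104) or litter 3 (0.0655). It passed the filter through its ICAM1-negative arrays and 1 ICAM1-positive array.

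The Hes5 promoter is shown because it was the one window among 9 from 8 of the genes that held the core of the RBPJ site, TGGGAA, searched on both strands. The promoter source used here had no entry for Hes1 or Hey1, so these genes could not be searched. The window is chr4:154960673-154960972 on the plus strand (RefSeq, GRCm38.p6), 5′ to 3′, with the core or its reverse complement TTCCCA in capitals.
Hes5: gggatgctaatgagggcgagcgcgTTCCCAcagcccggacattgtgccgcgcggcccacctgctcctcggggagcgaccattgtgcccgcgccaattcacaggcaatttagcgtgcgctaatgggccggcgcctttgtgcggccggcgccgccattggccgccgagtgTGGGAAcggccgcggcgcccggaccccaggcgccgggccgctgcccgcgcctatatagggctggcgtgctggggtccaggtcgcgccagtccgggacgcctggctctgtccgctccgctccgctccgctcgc
The matches began 226 and 82 bases before the annotated start, in opposite orientations. The core was found in 25.6% of the 32851 promoters, and it says nothing of binding in these cells.

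Ordered by the log2 difference of their leading probe sets, the 7 genes that rose ran Dll1, Hes1, Hey1, Notch1, Notch2, Jag1 and Jag2. The within-litter ranges of neighbours in this order overlapped for Dll1 and Hes1 and for Hey1 and Notch1. Other neighbours did not overlap, by narrow margins for Notch1 (lowest 3.42) over Notch2 (highest 3.38) and for Jag1 (lowest 1.76) over Jag2 (highest 1.75). Probe sets differ in their response, so this order describes these probe sets. Among 16399 genes, 1.32% had a larger log2 difference than Dll1 and 1.64% a larger one than Hes1.

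The rest of the pathway was mixed in direction. Of 56 further genes, 50 were measured, of which 9 rose, 10 fell and 31 did not pass, with a median log2 difference of 0.06 beside -0.06 over all genes. The share called, 38%, was near the 41.4% of all genes, and is therefore not a result about this list. Over all genes 20.6% were higher and 20.8% lower. The count of higher genes was 4 without litter 1, 6 without litter 2 and 2 without litter 3, and the count of lower genes was 6 without litter 1. Calls fell over the whole array as well, to 3764 probe sets higher without litter 1, 5116 without litter 2 and 3775 without litter 3, beside 6528 with all litters. Under 4 other settings of the filter, the low values or the variance model, 14 to 15 of the pathway genes were higher.

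Among other receptors and ligands, Dlk2, a Delta-like homologue, rose and Dner, a neuronal membrane protein with Delta and Notch-like repeats, fell. Dlk2 was at 1573, 982.3 and 1593 in ICAM1-positive cells and 57.2, 84.3 and 45.4 in ICAM1-negative cells, at least 14-fold higher (log2 difference 4.49 ± 0.32, adjusted p = 0.000322), by a probe set (1450005_x_at) of the same class as Hes5 1456010_x_at, which can cross-hybridise. Dner was at 939.7, 1381 and 1974 in ICAM1-positive cells and 11802, 10105 and 14280 in ICAM1-negative cells (log2 difference -3.13 ± 0.32, adjusted p = 0.000900). Notch4 and Dll4, which are known from endothelium, and Dlk1 did not pass (adjusted p = 0.166, 0.157 and 0.949). Notch4 averaged 45.9 ± 3.3 in ICAM1-positive and 91.7 ± 41.7 in ICAM1-negative cells (SD, n = 3 each), and Dll4 averaged 82.8 ± 22 in ICAM1-positive and 117.3 ± 15.3 in ICAM1-negative cells. Notch4 was called lower without litter 2 (log2 difference -1.39 ± 0.17, adjusted p = 0.0172) and without the ICAM1-negative array of litter 2 (-1.34 ± 0.18, adjusted p = 0.00697).

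The Fringe genes, whose enzymes extend the O-fucose sugars of Notch receptors and so alter ligand preference, also parted. Mfng was at 117.6, 165.2 and 204 in ICAM1-positive cells and 1176, 1093 and 1242 in ICAM1-negative cells (log2 difference -2.88 ± 0.25, adjusted p = 0.000511). Lfng was at 90.9, 134.4 and 144.3 in ICAM1-positive cells and 29.3, 47.7 and 15.7 in ICAM1-negative cells, at least 1.25-fold higher with values below the median raised to it (log2 difference as measured 2.11 ± 0.44, adjusted p = 0.0137). The Lfng call was lost with values so raised (adjusted p = 0.0990) and without litter 1 (0.0756) or litter 3 (0.0713). Pofut1, which adds the O-fucose, rose by 1.17 ± 0.22 on the log2 scale (adjusted p = 0.00874, up to 0.0923 when single litters or arrays were left out). Rfng (-0.46 ± 0.21) and the O-glucose transferase gene Poglut1 (0.57 ± 0.18) did not pass (adjusted p = 0.152 and 0.0589).

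Of the 8 measured protease genes, 1 rose and 2 fell, a share called of 37.5% beside 41.4% of all genes. With litter as a block Furin, a convertase that cuts the Notch precursor, was higher too (adjusted p = 0.0442, beside 0.0678 without the block). Psen2, a catalytic subunit of gamma-secretase, was at 665.1, 766 and 883.7 in ICAM1-positive cells and 4368, 4281 and 5740 in ICAM1-negative cells (log2 difference -2.63 ± 0.21, adjusted p = 0.000426). The other calls, named after their values were seen, were Aph1b, another subunit of that complex (-1.39 ± 0.18), and Adam17, a metalloprotease that can cleave Notch (1.37 ± 0.21; adjusted p up to 0.0644 when single litters or arrays were left out). Among 12 ubiquitination and trafficking genes 2 rose and 4 fell, a share called of 50% beside the same 41.4%. With litter as a block the ubiquitin ligase gene Mib1 lost its call (adjusted p = 0.0523, beside 0.0465 without the block). Mib1 also lost it whenever a single litter or array was left out (adjusted p = 0.0650 to 0.245). Dtx2, a relative of Dtx1, was higher with the block (0.0329, beside 0.0530 without it). Its probe set (1439429_x_at) is also of the class that can cross-hybridise. Dtx1, a ubiquitin ligase that binds Notch receptors, was at 328.1, 316 and 568.6 in ICAM1-positive cells and 4609, 3709 and 5932 in ICAM1-negative cells (-3.58 ± 0.31, adjusted p = 0.000555). Neurl1a, a ubiquitin ligase of the Neuralized family, fell by 2.69 ± 0.40 on the log2 scale (adjusted p = 0.00357; 0.0543 without litter 1).

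In the nuclear complex 2 of 14 measured genes rose and 1 fell, a share called of 21.4% beside 41.4% of all genes. With litter as a block the corepressor gene Ctbp2 was higher too (adjusted p = 0.0254, beside 0.126 without the block). Rbpj, the DNA-binding partner of the cleaved receptor, was at 3910, 4086 and 4130 in ICAM1-positive cells and 3715, 2863 and 4457 in ICAM1-negative cells. The sorts overlapped for Rbpj (log2 difference 0.16 ± 0.21, 95% interval -0.37 to 0.68, adjusted p = 0.615). The calls, named after their values were seen, were the Groucho-type corepressor genes Tle4 (1.95 ± 0.17), Tle1 (0.75 ± 0.22; adjusted p up to 0.222 when single litters or arrays were left out) and Tle3 (-1.31 ± 0.27; up to 0.111).

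Among 6 further Hes and Hey family and target genes, 1 rose and 1 fell, a share called of 33.3% beside 41.4% of all genes. Hey2, a close relative of Hey1, was at 349.3, 743.5 and 372.1 in ICAM1-positive cells and 3.1, 35 and 18.5 in ICAM1-negative cells, at least 4.75-fold higher (log2 difference 5.19 ± 0.92, adjusted p = 0.00720; 0.0600 without litter 3). Hes6, a family member that counteracts Hes1 and promotes neuronal differentiation, was at 885.1, 770.5 and 794.4 in ICAM1-positive cells and 3996, 3686 and 3077 in ICAM1-negative cells (-2.13 ± 0.18, adjusted p = 0.000518), also by a probe set that can cross-hybridise (1436050_x_at). Nrarp, a Notch target that acts as a feedback inhibitor, overlapped between the sorts (-0.29 ± 0.24, 95% interval -0.88 to 0.30, adjusted p = 0.408), as did Heyl (-0.01 ± 0.34, adjusted p = 0.989).

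**Figure D3:**
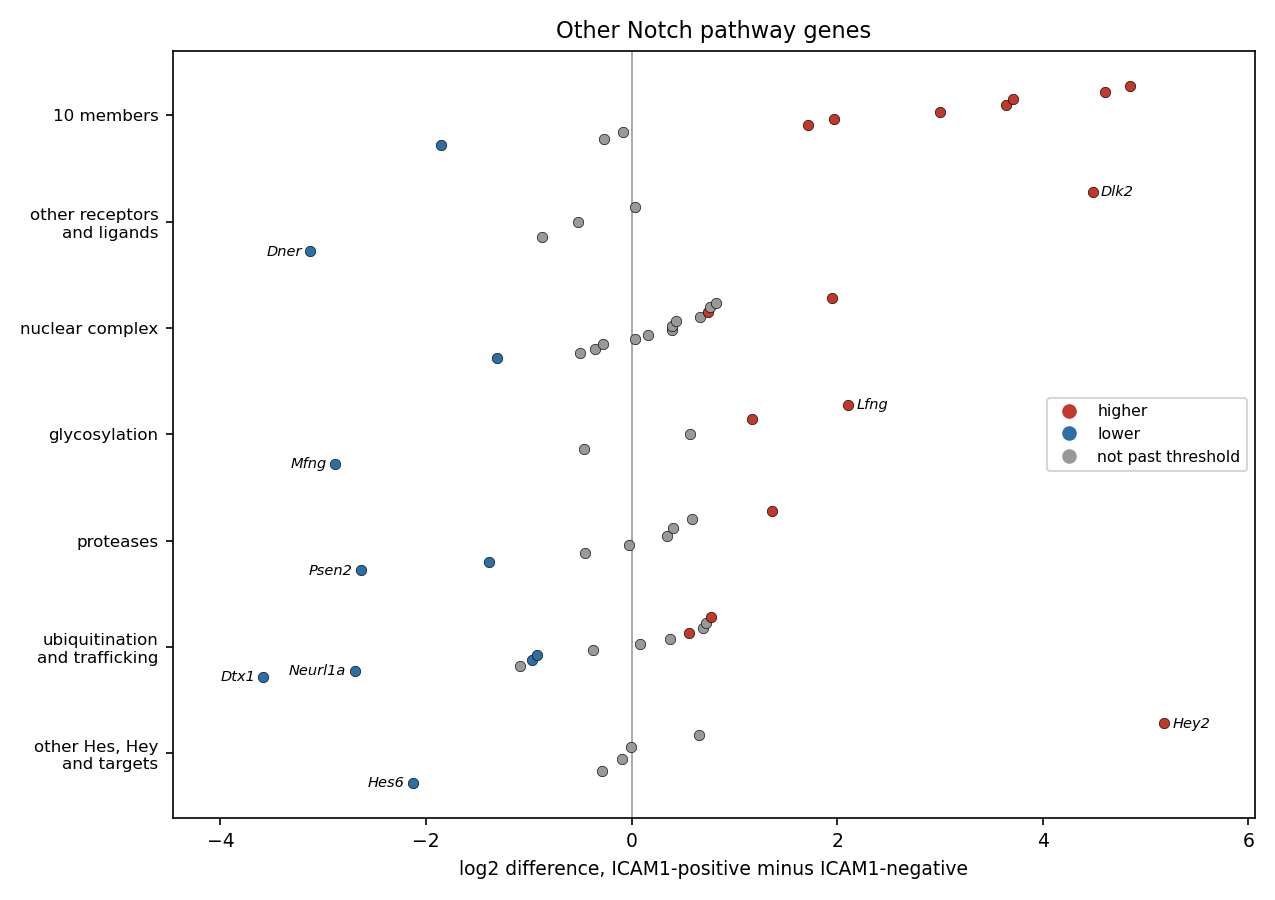
Log2 difference, ICAM1-positive minus ICAM1-negative, of the 10 genes and of 50 other measured Notch pathway genes by class, 1 point per gene (red higher, blue lower, grey not past the threshold). Names mark the 9 called genes whose fitted log2 difference was 2 or more in size (for Lfng, near background, the bound is 1.25-fold), of which Dlk2, Lfng and Hey2 rose and Dner, Mfng, Psen2, Dtx1, Neurl1a and Hes6 fell.

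The proneural genes that Hes repressors are known to hold down were lower, as 3 of 3 measured. Neurog1, a factor of neuronal precursors, was at 21.4, 56.5 and 76 in ICAM1-positive cells and 935.4, 1093 and 1049 in ICAM1-negative cells, at least 10.6-fold lower (log2 difference -4.50 ± 0.48, adjusted p = 0.00107). Neurod1, which acts after it, differed by -3.99 ± 0.17 (adjusted p = 0.000133), and Insm1, a zinc finger factor of the same precursors, by -3.69 ± 0.54 (adjusted p = 0.00335). No test linked these genes with Hes1 or Hey1, and markers of neurons fell on the same arrays.

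By Pearson correlation of log2 intensities over the 6 arrays, the genes most like Hes1 were Yap1, Igdcc4, Adam28, Ackr3 and Fam126a, with r from 0.9997 to 0.9999. Those most like Dll3 were Txndc11, Tfdp1, Zfp821, Aggf1 and Lrp8, with r from 0.998 to 0.999. The 6 arrays form 2 sorts, so any gene that separates them correlates highly: 745 genes exceeded r = 0.99 with Hes1 and 110 with Dll3. The likeness is of shape and not of size, since Lrp8 fell by 1.93 on the log2 scale while Txndc11 differed by -0.46 and was not called (adjusted p = 0.0702).

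Markers of horizontal basal cells and macrophages moved with the Notch genes, and those of Bowman glands did in part. All 8 horizontal basal cell markers rose (median log2 difference 7.56), with a summed intensity of 79941 to 83624 on ICAM1-positive and 748.2 to 1091 on ICAM1-negative arrays. Of these 8 markers 4 were below the array median on all ICAM1-negative arrays, so their log2 differences rest on values near background. Krt15 in this list passed the filter on low values only through its ICAM1-positive arrays. The call of Cdh3 in the same list was lost with litter as a block (adjusted p = 0.0944). All 7 macrophage markers rose on the same arrays (median 4.10), with sums of 16202 to 21016 in ICAM1-positive and 909 to 1114 in ICAM1-negative cells. Here 3 of the 7 were below the array median on all ICAM1-negative arrays, so their log2 differences also rest on values near background. C1qa passed the filter only through its ICAM1-positive arrays. Of 4 Bowman gland markers 3 rose, a share called of 75% (sums 33049 to 36891 in ICAM1-positive and 11483 to 19073 in ICAM1-negative cells). Most of these sums came from Bpifa1 (mean 30639 in ICAM1-positive and 13943 in ICAM1-negative cells), and Muc5b did not pass (limma adjusted p = 0.503). Of 5 sustentacular markers 2 rose, a share called of 40% that is near the 41.4% of all genes, with a median log2 difference of -0.29. The sustentacular sums were 35719 to 46056 in ICAM1-positive and 20318 to 34532 in ICAM1-negative cells. They are weighted by Cbr2 (mean 25138 in ICAM1-positive and 9803 in ICAM1-negative cells), which rose, as did Ermn. Cyp2g1 (9501 and 11042), Cyp1a2 (585.6 and 925.6) and Sult1c1 (2479 and 3886) had lower means in ICAM1-positive cells and were not called. The sums therefore do not stand for the whole sustentacular list. The part of these cell types in the higher Notch1, Notch2, Jag1, Jag2, Dll1, Hes1 and Hey1 was not tested.

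Markers of neurons and their precursors moved with Dll3. They also moved with Dner, Mfng, Psen2, Dtx1, Neurl1a and Hes6, the pathway genes called lower by log2 2 or more. All 5 immature neuron markers fell, with sums of 1402 to 2702 in ICAM1-positive and 28087 to 36625 in ICAM1-negative cells. All 5 mature neuron markers fell as well (sums 4250 to 8949 in ICAM1-positive and 58779 to 74531 in ICAM1-negative cells). Of 6 measured globose basal and dividing cell markers 4 fell, a share called of 66.7% beside 41.4% of all genes. Their sums were 3898 to 4856 in ICAM1-positive and 12715 to 16036 in ICAM1-negative cells, over all 6. Neurog1 and Neurod1, among the 4, are the proneural genes already given above. Lgr5 (log2 difference -0.21, limma adjusted p = 0.595) and Mki67 (-0.16, adjusted p = 0.815) did not pass. The part of these cells in the lower Notch genes was not tested.

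Markers of vascular cells did not move with the Notch genes by this test. Each of the 6 measured endothelial markers was below the array median on all 6 arrays, with sums of 259.2 to 325.1 in ICAM1-positive and 232.4 to 275.6 in ICAM1-negative cells, and 0 were called by limma (0 at an unadjusted p under 0.05). Of 6 pericyte and smooth muscle markers 0 were called (2 at an unadjusted p under 0.05), with sums of 3624 to 4415 in ICAM1-positive and 4592 to 5448 in ICAM1-negative cells. With litter as a block, Cspg4 of this list was higher (adjusted p = 0.0263). No marker was listed at 0 on any array.

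**Figure D4:**
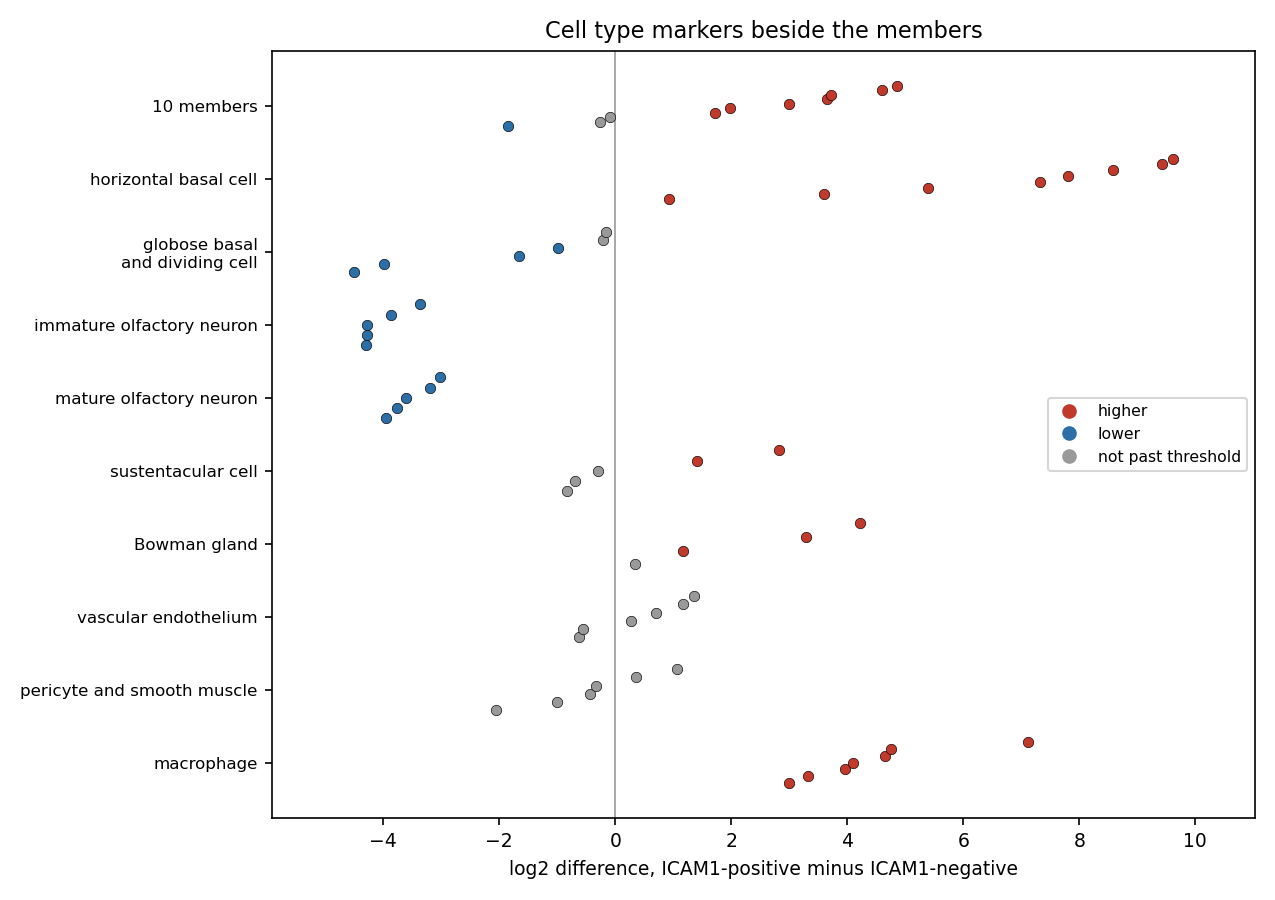
Log2 difference, ICAM1-positive minus ICAM1-negative, of the 10 genes and of the measured markers of each cell type, 1 point per gene (red higher, blue lower, grey not past the threshold). Horizontal basal cell and macrophage markers lie right of 0 (8 of 8 and 7 of 7 called higher), neuron markers lie left of it (5 of 5 called lower in each list), and no endothelial or pericyte marker was called. Krt15 of the basal list and C1qa of the macrophage list passed the filter only through ICAM1-positive arrays.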

How the data were processed

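Per the labels' protocols, cells were sorted with an ICAM1 antibody, and TRIzol-extracted RNA went through 2 amplification rounds before hybridisation to an Affymetrix mouse array. The authors deposited linear intensity values. The submitters' processing notes name GCRMA, but the deposited intensities are not log2 values and have a mean of 500 on each array after trimming 2% from each end. The program behind them is not given in the sources used here.

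Intensities were taken to log2 without a pseudocount, 64 control probe sets were left out, and probe sets above log2 4 on at least 3 of 6 arrays were kept (38694 of 45101). Of the 45037 others, 34945 had 1 platform symbol, 932 several and 9160 none. limma 3.58.1 in R 4.3.3 (lmFit, eBayes) tested ICAM1-positive against ICAM1-negative, without a litter block, with Benjamini-Hochberg adjustment over the probe sets kept, and was tested on simulated data. Other pathway genes and markers were read at their leading probe set. Named were the 10 genes, other pathway genes called with a log2 difference of 2 or more, pathway lists of 5 or fewer measured genes in full, proneural genes and the 5 genes most correlated with Hes1 and Dll3. Other pathway genes (Aph1b, Adam17, Furin, Mib1, Dtx2, Ctbp2, Rbpj, Nrarp, Heyl and the Tle genes) and the markers Cdh3, Cspg4, Krt15, C1qa, Lgr5 and Mki67 were named after their values were seen. So were the sustentacular markers and the Bowman gland markers Bpifa1 and Muc5b. Members and lists were chosen with earlier results of these data known. Alternatives were a litter block, other filters, quantile normalization, log2(intensity + 32), low values raised to the array median, an intensity trend, and leaving out each litter or array. For the other pathway genes only, the mean of a gene's probe sets was a further alternative.

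The labels say that a number marks a litter, so the numbers pair the arrays. Deviations of same-numbered arrays from their group means correlated at 0.127, 0.199 and 0.0812 over the 38694 probe sets.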

Additional observations from a re-analysis of the deposited data

How the results depend on the processing

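With litter as a paired block, 10 of the 16 probe sets were higher and 2 lower, as without it, no call among them changed, and the counts were 6899 higher and 7476 lower over all probe sets and 11 and 10 for the 50 other pathway genes. The leading probe sets of Notch1, Notch2, Jag1, Dll1, Dll3, Hes1 and Hey1, 7 in all, kept their call and direction under all 16 alternatives. The mean of a gene's probe sets is not among these 16, since it was read for the other pathway genes only. Over the leave-out alternatives, the counts ran from 3764 to 5854 higher and from 3678 to 6013 lower over all probe sets, from 7 to 11 higher and from 1 to 2 lower for the 16 probe sets, and from 2 to 9 higher and from 6 to 11 lower for the other pathway genes. The lower probe sets were 1 with the filter at log2 6, where Hes5 1456010_x_at was not tested, and 1 with dim values set to the median of their array. The other pathway genes higher were 14 with that filter, 14 with log2(intensity + 32), 15 with dim values so raised and 15 with an intensity trend, beside 9, and the cause was not tested. Among the 16 probe sets and the pathway and proneural genes named, directions turned only where no call stood. Notch2 1451889_at was at -0.00081 with dim values raised, Notch3 1421965_s_at ran from -0.44 to 0.20 and Hes5 1423146_at from -0.75 to 0.41 over the leave-out alternatives. Likewise Dlk1 ran from -0.29 to 0.36, Rbpj from -0.018 to 0.31 and Heyl from -0.36 to 0.35, and with dim values raised Dlk1 was at -0.00081 and Heyl at 0.061 (0.015 with log2(intensity + 32)). Calls of Hes5 and Lfng are limited by signals near background.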
